A study of Mus musculus with 21 samples.

Results

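The 12 libraries made from mouse oocytes, out of 21 in a series that also held 9 granulosa cell libraries, fell into 8 that were rich and 4 that were poor in oocyte RNA. The libraries were chosen by the median FPKM (fragments per kilobase of gene, scaled to the mapped fragments of the library) of Zp1, Zp2, Zp3, Gdf9 and Bmp15. A median of at least 50 made a library rich and a lower median made it poor, so the levels of these 5 genes describe the choice and are no finding. Every oocyte library had a place in this division. Because the division was made on measured values, gene differences between the sets are given as descriptions, without a p-value.

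The study asked how transplantation of human umbilical cord mesenchymal stem cells (UC-MSCs) acts on the ovary of old mice, and sequenced oocytes and granulosa cells of female mice. Per the study's methods the animals were ICR mice, the cells were injected beneath the ovarian capsule, and the zona pellucida was digested away with pronase before the oocytes were collected. The Young group (3 oocyte libraries) came from mice of 6 to 8 weeks, and the Aged group (2 libraries) from mice of 18 months that received no cells. The other groups were mice of 18 months examined 3 weeks after they received unsorted UC-MSCs (Aged + Unsorted, 2 libraries), cells sorted for a high level of the receptor LRP1 (Aged + LRP1high, 3 libraries) or cells sorted for a low level (Aged + LRP1low, 2 libraries). The design text calls the cells MII oocytes (arrested at the second meiotic metaphase), the methods say that they were released by scraping the ovary, and the labels do not say how many oocytes or mice went into a library. The labels call the replicates of a group biological, but nothing says which animals they came from, so p-values measure only the spread between these libraries.

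A fully grown oocyte stores a large pool of maternal messenger RNA, made while it grows and kept for the time when its own transcription is silent. It secretes growth factors such as GDF9 and BMP15 to the granulosa cells that surround it, and it builds the zona pellucida from the ZP proteins. Granulosa cells make none of these in quantity, so the transcripts mark the oocyte itself. In a bulk library, fewer oocytes and less RNA per oocyte cannot be told apart.

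Rich and poor libraries did not follow the study groups evenly. The rich libraries were Young 2 and 3, Aged 2, both Aged + Unsorted libraries and all 3 Aged + LRP1high libraries. The poor libraries were Young 1, Aged 1 and both Aged + LRP1low libraries. For the Aged + LRP1low group, the treatment and the poverty in oocyte RNA therefore cannot be told apart, and a comparison inside a study group was possible only in Young (2 rich, 1 poor) and Aged (1 rich, 1 poor).

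The median of the 5 choosing genes was 0.803 FPKM in Young 1, 5.75 in Aged + LRP1low 1, 6.89 in Aged + LRP1low 2 and 9.04 in Aged 1. Among the rich libraries its lowest, median and highest values were 65.2, 494 and 774 FPKM. The member nearest the limit from below was Aged 1 at 9.04, and the nearest from above was Young 2 at 65.2, with Aged + LRP1high 3 next at 140. Gdf9, the growth factor of the oocyte, was listed at 2.17 FPKM in Young 1, 9.04 in Aged 1, 9.66 in Aged + LRP1low 1 and 27.2 in Aged + LRP1low 2, against 65.1 to 1815 in the rich set. Bmp15 was listed at 0 in Aged + LRP1low 2 and Zp2 at 0 in Young 1. The same 8 and 4 libraries resulted when the median was taken over 10 oocyte markers instead of 5. The 10 include the 5 choosing genes, so this sameness is partly built in and is no independent check. For comparison, the median of the 5 genes lay between 0 and 4.604 FPKM in 8 granulosa libraries, while the library labelled Aged + Unsorted 1 among the granulosa cells stood at 557 and so went against its label.

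**Figure D1:**
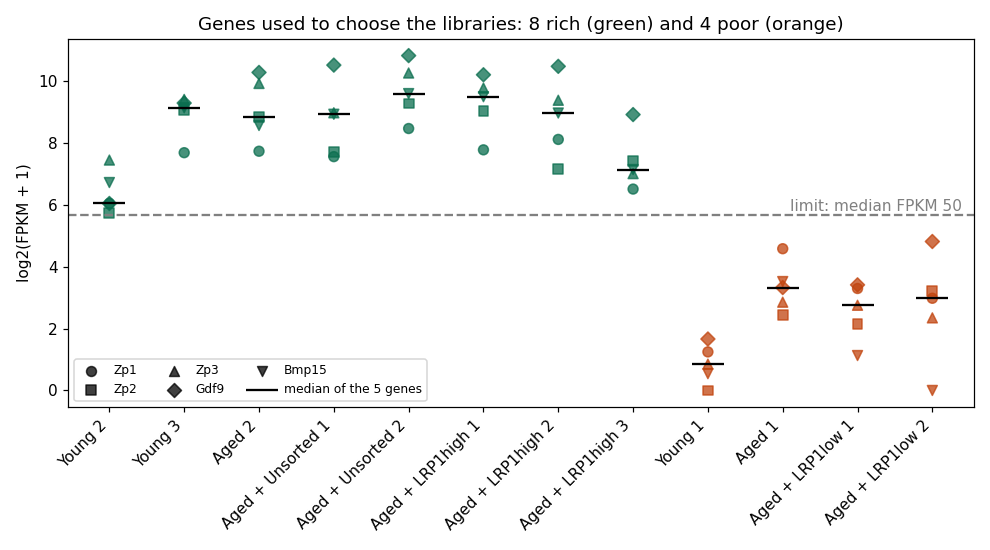
Level of each choosing gene, as log2(FPKM + 1), in the 12 oocyte libraries, with the median of the 5 genes as a black bar and the limit as a dashed line. Every rich library (green) has a median of 65.2 FPKM or more and every poor library (orange) one of 9.04 or less.

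The poor libraries were also the shallower ones. Aligned depth, read from the ratio of coverage to FPKM in single-exon genes, was 1.35 gigabases in Young 1, 0.578 in Aged 1, 0.515 in Aged + LRP1low 1 and 0.278 in Aged + LRP1low 2. The 8 rich libraries had a lowest depth of 0.791, a median of 2.84 and a highest depth of 3.40 gigabases. The sets overlapped only through Young 1, which was deeper than Aged 2 (0.791) and Aged + Unsorted 1 (0.984). The mean log10 depth was higher in the rich libraries by 0.57 (two-sided exact permutation test over 495 assignments of the 12 libraries, p = 0.0081). Depth was not used to choose the libraries. The test treated the 12 libraries as exchangeable, but the shallowest ones were both of the Aged + LRP1low group. For them depth, treatment and poverty in oocyte RNA cannot be told apart, and the test was not run without both.

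Outside the choosing genes, 27999 genes had a mean of at least 1 FPKM over the 12 libraries. In 618 of them every rich library stood above every poor library, which is 2.21% of the genes considered, and in 7786, or 27.8%, every poor library stood above every rich one. These shares are the background for all lists below, and since the choosing genes belong to the same contrast, nothing is read from a list's count beyond the description. The difference of medians on the log2(FPKM + 1) scale, rich minus poor, had a median of -1.76 over all genes considered, and 78.8% of them were lower in the rich set. Within Young this median was -0.55 and within Aged -1.36. A fold on this scale understates the change of low genes.

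The counts by level are a description only, since the mean was taken over 12 libraries of which 8 were rich. A gene high in the rich set passes a level limit through that set. A gene near 0 in the rich set passes it only through the poor set, here and in all lists below. Of the 4061 genes with a mean of at least 10 FPKM, 607 were above in every rich library and 26 in every poor one, with a median difference of 2.26. Of the 23938 genes with a mean from 1 to 10 FPKM, 11 were above in every rich and 7760 in every poor library, with a median of -1.94. The genes above in all rich libraries had a median mean level of 74.6 FPKM and 7 exons, and 90.6% of them were protein-coding. Those above in all poor libraries had a median of 1.65 FPKM and 4 exons, 56.3% were protein-coding, and 1260 of them were listed at 0 in every rich library. Among all genes considered, 59.9% were protein-coding and 26.6% had a single exon, against 9.71% with a single exon among the genes above in the rich set and 27.1% among those above in the poor set.

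The balance moved with scaling. After quantile normalization of the 12 libraries, 1661 genes were above in every rich library and 1292 in every poor one, and the median difference was -0.31. When values were rescaled to the genes outside the Gm10800 family and the mitochondrial genome, an alternative chosen after seeing the data, the counts were 419 and 10722 and the median was -3.63. Leaving out Young 2, the rich library closest to the limit, raised the count above in the rich set from 618 to 1326. With the limit at 100, which placed Young 2 among the poor libraries, 938 genes were above in every rich and 259 in every poor library.

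The gene with the largest difference toward the rich set was Skp1a. Skp1a, the adaptor that joins F-box proteins to the SCF ubiquitin ligase, was listed at 8.63 FPKM in Young 1, 159 in Aged 1, 4.96 in Aged + LRP1low 1 and 7.71 in Aged + LRP1low 2. In the rich libraries its lowest, median and highest values were 1861, 5925 and 27169 FPKM, a difference of medians of 9.28 (log2). Every rich library was far above the poor ones, and Aged 1 stood above the other 3 poor libraries. Gm813 (8.50), Paip1, a partner of the poly(A)-binding protein (8.46), Pttg1, the securin that holds back separase (8.17), Kdelr2, a receptor that returns proteins to the endoplasmic reticulum (8.05), and Elobl (8.02) followed.

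Sod1, the cytosolic superoxide dismutase, was listed at 20.8, 236, 6.22 and 36.5 FPKM in Young 1, Aged 1, Aged + LRP1low 1 and Aged + LRP1low 2, and from 895 to 17124 with a median of 7548 in the rich set. H1foo, the linker histone of the oocyte, was listed at 2.18, 49.5, 7.35 and 7.22 FPKM in the same order and from 113 to 3437 with a median of 1916 in the rich set. Fbxw24, an F-box protein of a cluster on chromosome 9, was listed at 1.41, 40.8, 2.68 and 0 FPKM, against a lowest, median and highest value of 230, 722 and 1277. Oosp1, a secreted protein of the oocyte, was listed at 0.978, 13.2, 3.54 and 4.63 FPKM, against 17.3, 1153 and 2180. For all 4 genes Aged 1 was the highest of the poor libraries, and the sets did not overlap.

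For genes of other types the sets likewise did not overlap, but Aged 1 was not always the highest of the poor libraries. The processed pseudogene Gm5514 was listed at 0 in Young 1 and Aged + LRP1low 1, at 0.259 in Aged 1 and at 0.603 in Aged + LRP1low 2, against 24.6 to 362 FPKM in the rich set. The long noncoding RNA 1700018B24Rik was listed at 0 in all 4 poor libraries and at 8.77 to 345 FPKM in the rich ones. Gm47180, Gm1821 and Gm43269 also lay above in every rich library, with differences of 7.07, 7.04 and 6.53.

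The promoters of Oosp1 and Fbxw24 are shown because both genes are oocyte-restricted and lay among the largest differences. E-boxes, with the letters CANNTG, are the sites that the oocyte factor FIGLA is known to use in the zona pellucida genes. The sequences are from RefSeq (GRCm38.p6), 250 bases before to 50 bases after the start of the gene, 5′ to 3′ on the gene's strand, with every CANNTG in capitals. Oosp1 lies at chr19:11691002-11691301 (minus strand) with 5 matches and Fbxw24 at chr9:109626010-109626309 (minus strand) with 4. Other genes among the largest differences held fewer, namely Elobl 2, Paip1 1, and Pttg1 and Sod1 0 each, so the 2 shown are not typical.
Oosp1: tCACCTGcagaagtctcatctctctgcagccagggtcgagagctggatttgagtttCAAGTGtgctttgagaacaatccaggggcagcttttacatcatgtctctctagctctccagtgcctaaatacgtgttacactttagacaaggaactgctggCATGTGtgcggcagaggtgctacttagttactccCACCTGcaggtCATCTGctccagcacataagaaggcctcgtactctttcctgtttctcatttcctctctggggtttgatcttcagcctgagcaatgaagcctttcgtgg
Fbxw24: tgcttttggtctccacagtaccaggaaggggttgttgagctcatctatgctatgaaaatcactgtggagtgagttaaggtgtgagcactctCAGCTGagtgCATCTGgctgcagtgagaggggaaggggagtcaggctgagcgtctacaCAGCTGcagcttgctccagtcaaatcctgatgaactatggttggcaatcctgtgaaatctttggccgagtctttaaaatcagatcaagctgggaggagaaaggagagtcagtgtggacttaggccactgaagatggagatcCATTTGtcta
Of the 618 genes above in every rich library, 437 had a RefSeq promoter, and 62.2% of these held at least 1 CANNTG (the motif reads the same on both strands). The share was 66.9% among 14905 promoters of the genes considered and 72.2% among all 27025 promoters. TAATTG, letters that the oocyte factor NOBOX is known to bind, read on both strands, was in 5.72%, 6.07% and 8.15% of the same promoters. The median GC content was 62.3%, 58.3% and 52.7%. A match is only a description of the letters.

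Lists of oocyte genes were higher in the rich set on the whole, with members that went the other way. The lists and how many of their members were above in every rich library follow by role, and beside each stands the median difference (log2), which was -1.76 over all genes. Of 10 genes for proteins of the egg surface and secretions, 5 were above in every rich library (Oosp1, Oosp2, Oosp3, Astl and Plat) with a median of 4.36. Mfge8, a secreted lipid-binding protein, was the only member of that list above in every poor library, at 1.34, 12.5, 17.4 and 16.1 FPKM in Young 1, Aged 1, Aged + LRP1low 1 and Aged + LRP1low 2 and at most 0.541 in the rich set. Mfge8 and the members that went against their list, named here and below, were chosen after their values were seen.

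Of 8 genes of the subcortical maternal complex, a protein assembly beneath the egg membrane that early embryos need, 5 were above in every rich library and all 8 had a positive difference, with a median of 5.53. Ooep was listed at 0.672, 12.7, 3.30 and 8.35 FPKM in the poor libraries, in the order above, and at 154 to 791 in the rich set. Zbed3 had the largest difference of the list, 7.38. Nlrp5, its founding member, overlapped between the sets: Aged + LRP1low 2 stood at 34.0 FPKM, above the lowest rich value of 22.9. Of 9 other oocyte Nlrp genes, 3 were above in every rich library, with a median of 4.25. Nlrp14 stood at 249 FPKM or more in the rich set and at 47.2 or less in the poor set.

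Of 12 genes of maternal chromatin, 6 were above in every rich library and the median was 3.53. Dppa3, which protects maternal DNA methylation, was listed at 1.98, 22.6, 5.27 and 65.3 FPKM in the poor libraries and from 530 to 3949 in the rich ones. Npm2, a chaperone of oocyte chromatin (6.98), and Zfp57, a guard of imprints (6.49), were among the 6. Of 20 genes for storage and decay of maternal messenger RNA, 8 were above in every rich library, with a median of 3.46. Btg4, an adaptor of the deadenylase that clears maternal messages, stood at 719 to 5076 FPKM in the rich set and at 3.94, 65.5, 11.6 and 13.9 in the poor libraries. Zar1, a factor that keeps maternal messages, had a difference of 5.35.

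A list of 24 genes held the oocyte F-box, Oog and Tcl1 families and, besides these families, Skp1a and Spin1. In it 16 genes were above in every rich library and all 24 had a positive difference. The median was 6.25, the highest among the lists. Besides Skp1a and Fbxw24 the 16 included Spin1, a spindle-associated histone reader (7.26), Fbxw14 (7.77) and Fbxw28 (7.81). Of 30 genes of the meiotic cell cycle, 4 were above in every rich library, namely Pttg1, Ccnb1, Mos and Wee2, and the median was 2.59. Rec8, the meiotic cohesin subunit, was above in every poor library, at 1.03, 6.10, 5.06 and 10.8 FPKM against at most 0.310. Of 16 oocyte transcription factors, 5 were above in every rich library, with a median of 1.39. Nobox stood at 26.3 to 176 FPKM in the rich set and at most 6.21 in the poor set, while the values of Figla overlapped, at 0 to 31.2 and 0 to 14.0 FPKM.

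**Figure D2:**
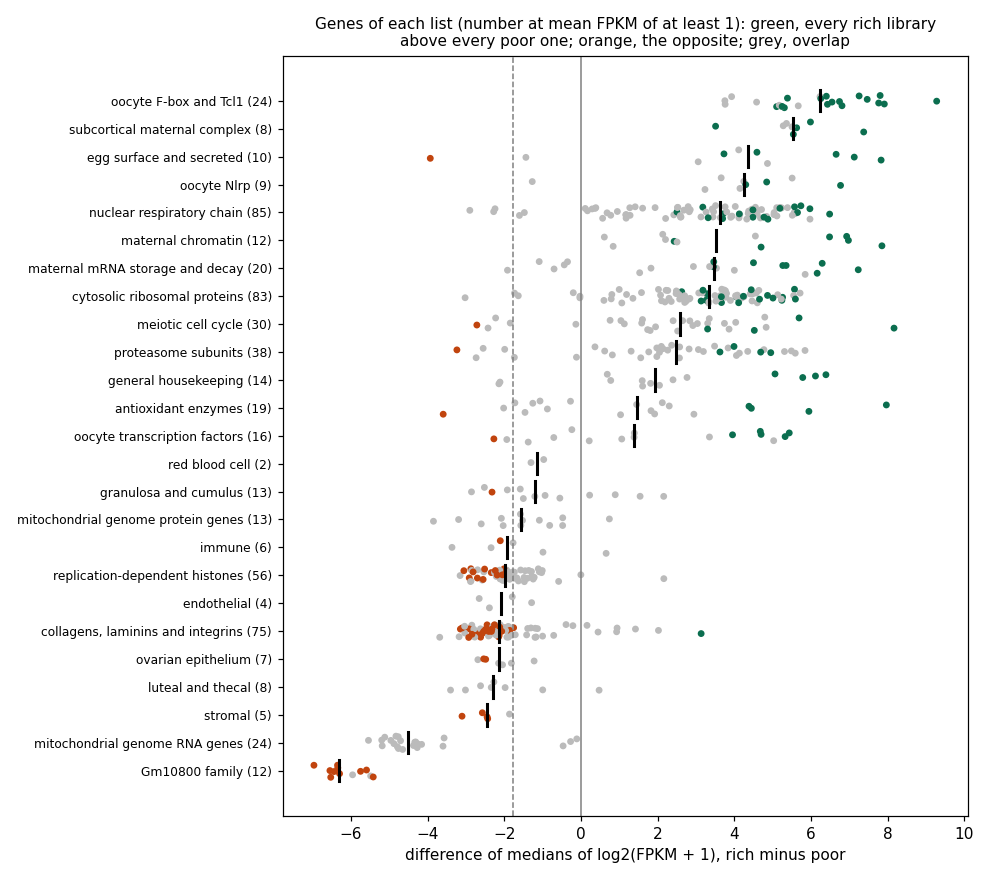
Difference of medians of log2(FPKM + 1), rich minus poor, for each gene of each list with a mean of at least 1 FPKM, with the list's median as a black bar; green genes are above in every rich library, orange ones above in every poor library and grey ones overlap. The F-box and Tcl1 list lies farthest to the right (median 6.25), the Gm10800 family farthest to the left (-6.32), and the dashed line is the median over all genes (-1.76).

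Lists of genes used by every cell had positive medians within the range of the oocyte lists. Of 85 nuclear genes of the respiratory chain, 16 were above in every rich library, with a median of 3.64. Of 83 cytosolic ribosomal protein genes, 18 were, with a median of 3.34, and no member of either list was above in every poor library. Of 38 proteasome subunit genes, 4 were above in every rich library and the median was 2.47. Psmb10, a subunit of the immunoproteasome, was above in every poor library (2.27, 17.8, 8.42 and 8.40 FPKM against at most 0.993), and its partners Psmb8 and Psmb9 had differences of -1.73 and -2.73. Of 19 antioxidant enzyme genes, 4 were above in every rich library (Sod1, Prdx1, Prdx2 and Glrx), and Txnrd2 was above in every poor library. Of 14 housekeeping genes, 4 were above in every rich library, Actb among them at 416 to 4851 FPKM against 84.6, 154, 4.995 and 15.9.

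Granulosa markers did not separate the sets. Of 18 granulosa and cumulus markers, 13 passed the level filter, none was above in every rich library, and Foxl2, a transcription factor of granulosa cells, was the only one above in every poor library. Foxl2 was listed at 8.06, 7.37, 5.96 and 5.19 FPKM in Young 1, Aged 1, Aged + LRP1low 1 and Aged + LRP1low 2 and at most 2.04 in the rich set. The summed level of the 18 markers was 51.3, 55.3, 98.2 and 94.6 FPKM in the poor libraries and 34.1 to 332 in the rich ones, so the sets overlapped. The follicle-stimulating hormone receptor Fshr was listed at 0 in Young 1 and at 1.27 to 3.84 FPKM in the other poor libraries.

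Markers of other cell types were listed at low levels in most poor libraries. The 8 stromal markers summed to 4.72, 34.8, 45.7 and 39.9 FPKM in the poor libraries and to 0.289 to 7.24 in the rich ones. Col1a1, a chain of fibrillar collagen, was listed at 0.824, 14.9, 5.17 and 5.13 FPKM against at most 0.787. The 7 immune markers summed to 8.89, 47.3, 48.8 and 33.3 FPKM against 0.303 to 28.9. The 7 markers of the ovarian surface epithelium summed to 7.93, 52.9, 40.6 and 35.9 FPKM against 0.195 to 6.01, and the 4 endothelial markers to 3.83, 26.1, 25.3 and 23.1 against 0.192 to 11.0. The 10 luteal and thecal markers gave 10.4, 64.7, 63.2 and 65.6 FPKM against 0 to 40.8, and the 5 red blood cell markers 2.38, 0, 25.6 and 7.25 against 0 to 28.2. Across these lists the 3 poor libraries from old mice were alike and Young 1 was lower, except for red blood cell markers. Of 75 collagen, laminin and integrin genes that passed the filter, 32 were above in every poor library and Lamb1 was above in every rich one, with a median difference of -2.14. That median was -0.45 after quantile normalization and 1.18 among members with a mean of at least 10 FPKM.

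Receptor genes for odours and pheromones were also mostly listed at low levels in the poor libraries. Of 1094 olfactory receptor genes, 81 were listed at 1 FPKM or more in Young 1, 702 in Aged 1, 1063 in Aged + LRP1low 1 and 915 in Aged + LRP1low 2. The rich libraries had 3 to 159 of them, with a median of 13, and the highest count was in Aged 2. The 9 granulosa libraries had 6 to 469 of them, with a median of 62, and so overlapped both oocyte sets. The median olfactory receptor was listed at 0.300, 2.28, 2.77 and 2.31 FPKM in the 4 poor libraries in the same order, and the median protein-coding gene at 1.16, 4.10, 5.23 and 3.82. In the rich libraries the median olfactory receptor was at 0 in all but Aged + LRP1high 2 (0.0707), and the median protein-coding gene at 0 to 0.432. Of 359 olfactory receptor genes that passed the filter, 4 were higher in the rich set and 355 lower. Among the 4 was Olfr288, at a median of 22.2 FPKM in the rich and 5.11 in the poor set. Vomeronasal receptors, which detect pheromones, had medians of 0.336, 2.14, 2.72 and 2.48 FPKM in the poor set. These values move with the marker sums of the other cell types, and their part in those sums was not tested.

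The numbers of genes listed followed. At 1 FPKM or more there were 19690 genes in Young 1, 27970 in Aged 1, 47920 in Aged + LRP1low 1 and 38934 in Aged + LRP1low 2. The rich libraries had a lowest count of 3135, a median of 9602 and a highest of 11916, so the sets did not overlap. At 10 FPKM or more the poor libraries had 621, 6844, 3631 and 3050 genes and the rich ones 1328 to 5580, and the sets overlapped. The SD of the log2 values of protein-coding genes was 0.937, 1.44, 0.810 and 0.964 in the poor libraries and 1.42 to 2.22 in the rich ones, and the sets overlapped through Aged 1 and Young 2. At the depths found, 1 read of 150 bases in a gene of 1 kilobase would be worth 0.111 to 0.540 FPKM in the poor libraries and 0.0441 to 0.190 in the rich ones.

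**Figure D3:**
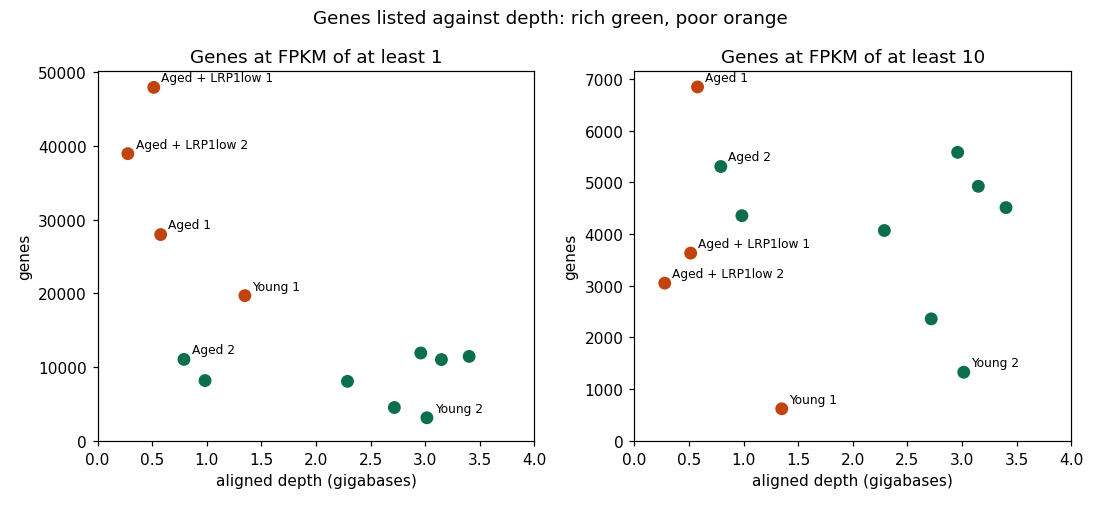
Number of genes at 1 FPKM or more (left) and at 10 FPKM or more (right) against aligned depth in gigabases, for 8 rich (green) and 4 poor (orange) libraries. The poor libraries have 19690 to 47920 genes at the lower limit, above all rich libraries, and overlap with them at the higher one.

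Gene models made of a satellite-like repeat took 42.4% to 88.4% of TPM in the poor libraries. Mouse chromosomes carry long tandem arrays of the major satellite beside their centromeres, and a few annotated gene models consist of such sequence. The 12 members of the Gm10800 family found in the files lie on chromosomes 2, 9 and 14. A stretch of Gm10800 (chr2:98666547-98667301, minus strand) and of Gm10722 (chr9:3000922-3002330, plus strand) is shown because both stood among the largest differences toward the poor set. Coordinates are those of GRCm38, as the files list them. The letters are the first 240 bases of each transcript in GENCODE M21, and capitals mark runs of at least 20 bases that occur in both whole transcripts.
Gm10800: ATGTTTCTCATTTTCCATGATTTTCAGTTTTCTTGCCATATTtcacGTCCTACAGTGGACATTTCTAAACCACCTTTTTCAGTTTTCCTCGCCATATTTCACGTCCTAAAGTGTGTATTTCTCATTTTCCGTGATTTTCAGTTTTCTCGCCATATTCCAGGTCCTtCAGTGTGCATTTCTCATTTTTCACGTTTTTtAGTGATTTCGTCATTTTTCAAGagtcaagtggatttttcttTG
Gm10722: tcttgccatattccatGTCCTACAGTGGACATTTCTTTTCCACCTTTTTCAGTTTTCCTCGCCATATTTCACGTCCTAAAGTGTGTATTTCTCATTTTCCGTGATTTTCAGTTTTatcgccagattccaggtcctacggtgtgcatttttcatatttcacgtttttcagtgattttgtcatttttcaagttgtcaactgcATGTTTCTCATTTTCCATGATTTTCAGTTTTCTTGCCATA
Capitals cover 89.6% of the first stretch and 57.9% of the second. The Gm10722 transcript resembles itself most when shifted by 234 bases (65.2% identical), and the same shift was best for 9 of the 12 members. Reads from such copies cannot be assigned to a member with certainty, so the family is given as a sum, and values of its members are not separate results.

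The family held 88.4% of all TPM (FPKM rescaled to 1 fixed total per library) in Young 1, 48.6% in Aged 1, 42.4% in Aged + LRP1low 1 and 63.6% in Aged + LRP1low 2. In the rich libraries it held from under 0.01% to 19.7%, with a median of 1.12%. The highest rich value was that of Aged 2, and the next was 3.17% in Aged + Unsorted 1. On the FPKM scale 10 of the 12 members, which share sequence, were above in every poor library, with a median difference of -6.32. Within Young the median was -10.2 and within Aged -1.21. Protein-coding genes outside the family and the mitochondrial genome held 4.89%, 26.8%, 29.1% and 18.5% of TPM in the poor libraries and 52.4% to 93.1% in the rich ones. In 8 of the 9 granulosa libraries the family held 25.9% to 97.1% of TPM, so a high share was not particular to the poor oocyte libraries.

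**Figure D4:**
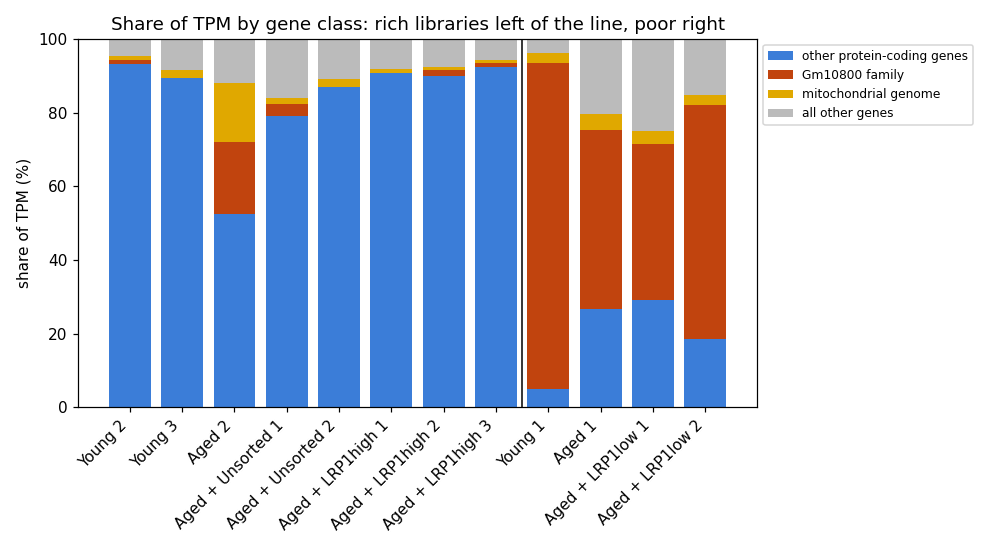
Share of TPM held by the Gm10800 family, the mitochondrial genome, other protein-coding genes and all other genes in the 12 oocyte libraries. The family holds 42.4% to 88.4% in the 4 poor libraries on the right, and at most 19.7%, in Aged 2, among the rich ones.

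Among the other gene models above in every poor library, Duxf3, a copy of a homeobox repeat, was listed at 18.0, 65.5, 68.2 and 41.4 FPKM in Young 1, Aged 1, Aged + LRP1low 1 and Aged + LRP1low 2 and at most 11.9 in the rich set. Gm26917 and Gm42418, neighbouring models on chromosome 17, were at 745 to 1306 and 449 to 726 FPKM in the poor libraries and at most 161 and 180 in the rich ones. The highest rich value of both was lower than any poor value. Fau-ps2, a pseudogene, was at 35.4 to 86.7 FPKM against at most 2.91. The type TEC holds gene models that the annotation lists as still to be tested by experiment. Of 3214 such models 1152 passed the filter, and 520 of these were above in every poor library. That share is 45.1%, against 27.8% of all genes. The share was 26.0% among 3544 processed pseudogenes and 26.1% among 16773 protein-coding genes. Within protein-coding genes it was 38.6% for those with 1 exon and 23.9% for those with 10 or more. A model near 0 in the rich set passed the filter only through the poor set, so these shares are descriptions only. The median difference of TEC models was -2.02, but -0.41 after quantile normalization and 2.59 at a mean of at least 10 FPKM.

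The mitochondrial genome gave a level and a flat profile in the poor libraries. It encodes 13 proteins, 2 ribosomal RNAs and 22 transfer RNAs, which are cut from long transcripts, and only the former 2 kinds are abundant as long RNA. The median protein gene was listed at 692, 537, 436 and 359 FPKM in Young 1, Aged 1, Aged + LRP1low 1 and Aged + LRP1low 2, and the median transfer RNA gene at 874, 605, 462 and 450. The ratio of the former to the latter was therefore 0.792 to 0.943. In the rich libraries the ratio was 0.997 at the lowest, in Aged 2, with a median of 4.36 and a highest value of 255 in Young 3. The transfer RNA gene mt-Tw was at 922, 733, 571 and 455 FPKM in the poor libraries, and at a median of 16.9 in the rich ones, where the highest value, in Aged 2, was 3157. The protein gene mt-Atp6 was at 457, 385, 305 and 272 FPKM in the poor libraries and at a median of 596 in the rich set.

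The SD of log2(FPKM + 1) over the 37 mitochondrial genes was 0.876, 0.764, 0.906 and 0.832 in the 4 poor libraries. In 7 rich libraries it was 1.37 to 3.71, and in Aged 2 it was 0.612. Aged 2 therefore lay with the poor libraries on this measure although its oocyte genes were high. The same library held 16.0% of TPM in the mitochondrial genome, against 0.707% to 2.16% in the other rich libraries and 2.69% to 4.13% in the poor ones. No gene of the mitochondrial genome was above in all libraries of a set. In the 9 granulosa libraries the SD was 0.606 to 2.77, with a median of 0.947. Their ratio of the median protein gene to the median transfer RNA gene was 0.836 to 18.8, with a median of 1.23. A flat profile was therefore not particular to the poor oocyte libraries.

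**Figure D5:**
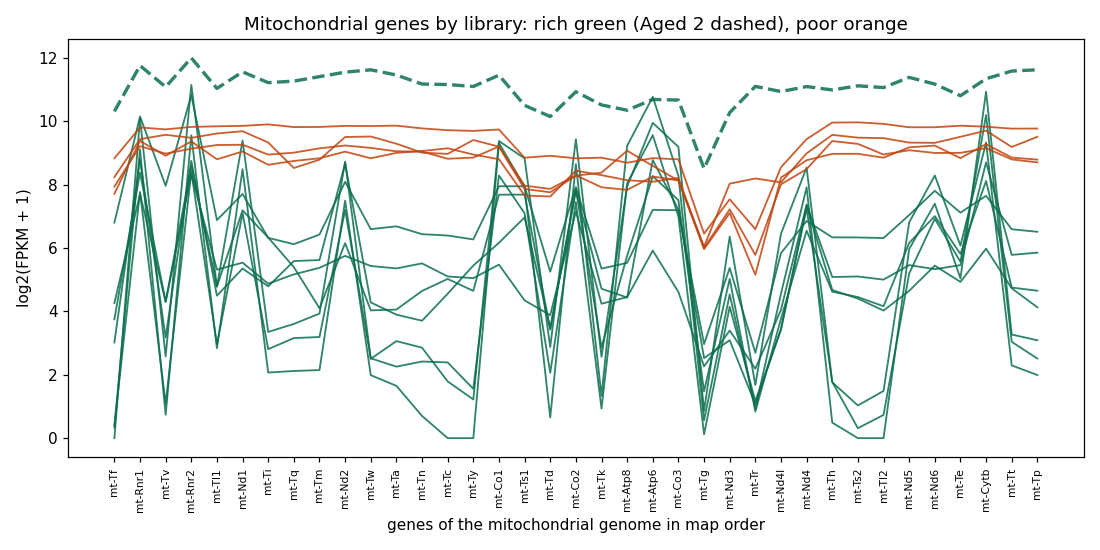
Level, as log2(FPKM + 1), of the 37 genes of the mitochondrial genome in map order, in each of the 12 oocyte libraries. The 4 poor libraries (orange) and Aged 2 (green, dashed) vary least from gene to gene, with SDs of 0.612 to 0.906. The other rich libraries (green) vary more. Their ratio of the median protein gene to the median transfer RNA gene ranges from 1.31 (Aged + LRP1high 3) to 255 (Young 3).

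Mean signal on the Y chromosome was higher in Aged 1, Aged 2 and both Aged + LRP1low libraries than in the other 8 oocyte libraries. Pseudogenes and TEC models, which are mostly not transcribed, were averaged by chromosome with each value limited to 50 FPKM. On 13909 autosomal models the mean was 0.837 FPKM in Young 1, 3.07 in Aged 1, 3.26 in Aged + LRP1low 1 and 2.61 in Aged + LRP1low 2. On 1095 models of the X chromosome it was 0.699, 1.35, 1.49 and 1.31 FPKM, a ratio to the autosomes of 0.835, 0.440, 0.456 and 0.503. The rich libraries had ratios of X to autosomes from 0.453 to 0.745, with a median of 0.624, so the sets overlapped. On 789 models of the Y chromosome it was 0.0423, 0.798, 0.649 and 0.582 FPKM, a ratio of 0.0505, 0.260, 0.199 and 0.223. In the rich libraries the ratio of Y to autosomes was 0.209 in Aged 2 and 0.00939 to 0.0391 in the other 7, and in the 9 granulosa libraries it was 0.00276 to 0.0246. By the share of Y models above 0, Aged 2 (8.75%) did not stand out. Aged + LRP1high 2 (23.4%) and Aged + LRP1high 3 (9.38%) had more, against 27.9% in Aged 1 and 81.5% and 57.0% in the Aged + LRP1low libraries. The design text gives female mice, and all cells came from ovaries.

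Y-linked genes were also lowest in Young 1 among the poor libraries, while the other 3 stood in another order. The 8 listed Y-linked genes summed to 0.0826 FPKM in Young 1, 5.37 in Aged 1, 14.7 in Aged + LRP1low 1 and 16.1 in Aged + LRP1low 2. The rich libraries summed to at most 0.958 FPKM, and none of the 8 genes reached a mean of 1 FPKM over the 12 libraries. Kdm5d, a histone demethylase encoded on the Y chromosome, was listed at 0.0234, 2.199, 3.03 and 3.16 FPKM in the poor libraries and at most 0.0749 in the rich ones. In Aged 2, Kdm5d, Ddx3y and Eif2s3y were listed at 0 and Uty at 0.958 FPKM. Whether the Y-linked signal bears on the values of the other genes was not tested.

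Rich libraries were more like each other than poor libraries were. Spearman's rho over the 28004 genes with a mean of at least 1 FPKM, the choosing genes included, had a median of 0.60 among 28 pairs of rich libraries (0.46 to 0.91). It was 0.19 among 6 pairs of poor libraries (0.035 to 0.41) and 0.14 among 32 pairs of a rich and a poor library (0.0014 to 0.28), and these ranges overlapped. Between poor oocyte libraries and granulosa libraries the median over 36 pairs was also 0.19. Of the poor libraries Aged 1 had the lowest medians, with a median of 0.065 to the other poor libraries and 0.039 to the rich ones. The points are genes of the same 2 libraries and not replicates, so no p-value is given. Libraries of unlike depth share fewer listed genes. Most of the genes had a mean from 1 to 10 FPKM, and the rich libraries were chosen for a shared high level of oocyte genes. The contrast is therefore a description only.

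With comparisons between study groups limited to rich libraries, no gene passed. The test was limma on log2(FPKM + 1), with a fold above 1.5 and a Benjamini-Hochberg adjusted p below 0.05, over 11059 genes in Young (2 libraries), Aged + Unsorted (2) and Aged + LRP1high (3). The Aged group had 1 rich library and Aged + LRP1low had none, so neither entered. The study took its aging genes from Young against Aged oocytes, a comparison that was not run here in any setting. The number called was 0 (0%) for Aged + LRP1high against Young, 0 for Aged + Unsorted against Young and 0 for Aged + LRP1high against Aged + Unsorted. With all 12 oocyte libraries and 27999 genes, limma likewise called 0 genes in each of these 3 comparisons. With an unadjusted limma p below 0.05 among the rich libraries and the same fold, 211, 470 and 357 genes passed. The smallest adjusted p from limma was 0.78, for Aged + Unsorted against Young, where Snora47, a small nucleolar RNA, was higher by 6.89 (SE 1.70). With these group sizes, 32 of 100 genes that simulated data for Aged + LRP1high against Young changed by 6 on the log2 scale were called, among 11059 genes. Of 100 genes changed by 12, 93 were called, as were 8 of 10859 unchanged genes. The number of libraries and the spread between them, with SEs of 1.52 to 1.74 for the 10 genes of smallest p in each comparison, limit what could be detected.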

How the data were processed

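Polyadenylated RNA of oocytes and granulosa cells was sequenced. The methods name Smart-seq2 and the labels a stranded KAPA kit. Per the labels, the authors used HISAT2 2.2.1 and StringTie 1.3.3b. The processing notes name mm9, but 54577 of 55335 gene identifiers in the files carry the version and coordinates of GRCm38 (GENCODE M21). The deposited tables, 1 per library, give FPKM, TPM and coverage per gene as the authors' software wrote them. No read counts were used here. FPKM was summed over the 3 to 14 repeated identifiers of a table.

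Aligned depth in gigabases was taken from 21772 genes of 1 exon and 1 transcript, as their median coverage divided by FPKM. The 12 oocyte libraries were divided by the median FPKM of 5 genes at a limit of 50. Genes with a mean of at least 1 FPKM were described by the difference of medians of log2(FPKM + 1) and by whether the sets overlapped. Depth was compared by an exact permutation test, and study groups among rich libraries by limma 3.58.1 (R 4.3.3) with a pseudocount of 1, tested on simulated data. Python 3.11.15 and pandas 2.3.3 were used otherwise.

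The members and lists were chosen with earlier results of these data known. Named genes were those with the largest differences among genes whose sets did not overlap (up to 10 protein-coding and 5 others each way), the choosing genes and the up to 4 highest genes of each list. Other genes named in the text were chosen after their values were seen. Alternatives were TPM, other pseudocounts, filters, scalings and limits, and leaving out libraries.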

Additional observations from a re-analysis of the deposited data

Results flagged for a closer look

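Aged 2, a rich library, lay far from the other 7 rich libraries on 5 measures. Its share of TPM in protein-coding genes outside the Gm10800 family was 52.4%, its share in that family 19.7% and its share in the mitochondrial genome 16.0%. It listed 159 olfactory receptor genes at 1 FPKM or more, and the mean of its Y chromosome pseudogenes and TEC models was 0.262 FPKM. Aged + Unsorted 1 held 1.73% of TPM in small RNA genes, far above the other rich libraries. Among 24 such checks of the rich and poor sets, 6 stood out, 5 of them in Aged 2. Chance alone gives about 1 in 20 for independent checks. These checks share libraries and parts of the same TPM total, so the count cannot be set against that rate.

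The granulosa library labelled Aged + Unsorted 1, outside the comparisons of oocyte libraries, had a median of 557 FPKM over the 5 choosing genes, against 0 to 4.604 in the other 8 granulosa libraries. Its Spearman's rho with the rich oocyte libraries over 28004 genes had a median of 0.64, and with the other granulosa libraries 0.33.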

How the results depend on the processing

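The difference of medians over all genes, -1.76, was -2.24 with TPM, -4.08 with a pseudocount of 0.1, -1.13 with no filter, 2.26 for genes with a mean of at least 10 FPKM, -0.31 after quantile normalization, -1.29 with the limit at 100, -1.17 without both Aged + LRP1low libraries, -3.63 after rescaling outside the Gm10800 family and -2.11 to -1.35 when 1 library was left out. The 618 genes above in every rich library became 1661 after quantile normalization, 938 with the limit at 100, 1400 without Young 2 and Aged 2, and 619 to 1326 without 1 library. The 7786 above in every poor library became 26 at a mean of at least 10 FPKM, 1292 after quantile normalization, 4385 among protein-coding genes, 259 with the limit at 100, 4661 without both Aged + LRP1low libraries and 5821 to 10982 without 1 library. The rescaling and the setting without Young 2 and Aged 2 were chosen after seeing the data. The poor median of genes listed exceeded the rich by 23850.5 at 1 FPKM, by 10489 among protein-coding genes and by -1092.5 at 10 FPKM. At a mean of at least 10 FPKM, list medians turned positive for granulosa (1.85), collagens, laminins and integrins (1.18), histones (2.17), olfactory receptors (2.06), TEC models (2.59) and processed pseudogenes (3.08). The endothelial median was 0.11 after quantile normalization and the granulosa median 0.18 without both Aged + LRP1low libraries. The depth difference kept its direction and its side of 0.05, at 0.47 to 0.69 (log10) without 1 library, exact permutation p 0.0061 to 0.024. The causes were not tested.

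Among rich libraries limma called 0 genes in each comparison. For Aged + LRP1high against Young, Aged + Unsorted against Young and Aged + LRP1high against Aged + Unsorted, an unadjusted limma p below 0.05 gave 211, 470 and 357, no filter 1, 2 and 1 called, and trended robust variances 0, 1 and 1. With the replicate block 0 genes were called in each; same-numbered libraries correlated at -0.29 to 0.038, so the numbers were not taken as pairs. Shallow poor libraries limit what can be said of genes near the worth of 1 read.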
